A study of Mus musculus with 4 samples.

Results

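The 34 genes described here encode the metabotropic receptors for acetylcholine, serotonin, dopamine, noradrenaline with adrenaline, and histamine, together with 1 serotonin-gated ion channel subunit. They were chosen by name from these receptor families, and all 34 were found among the 21853 protein-coding genes of the GENCODE M21 annotation. The measurement was chromatin immunoprecipitation sequencing (ChIP-seq) of H3K27ac, the acetylated form of lysine 27 in histone H3 that is found at active promoters and enhancers, in tissue labelled as a layer of the hippocampus. The tissue came from male B6CASTF1/J mice, the first-generation cross of C57BL/6J and CAST/EiJ, aged 2 months. No treatment was given in the labels, and all 4 samples formed 1 group. They came from pools C and D, with 7 biosamples in each pool and 2 technical replicates of each, so the pool was the replicate unit.

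Receptors of these families sense transmitters that reach the hippocampus mainly through axons from the septum, raphe nuclei, locus coeruleus, midbrain and posterior hypothalamus. Most act slowly through G proteins. Those coupled to Gq/11 activate phospholipase C, those coupled to Gs raise cyclic AMP, and those coupled to Gi/o lower cyclic AMP and open potassium channels. The receptors are made by the cells that respond, and some also serve as autoreceptors on the axons that release the transmitter.

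The authors deposited 4 peak lists: a replicated list from both pools with 88930 peaks, a list of both pools together with 102643, and the lists of pool C with 94836 and pool D with 63623. A gene was called marked where a peak lay within 1 kb of a transcription start site (TSS) of one of its coding transcripts, and its promoter signal was the highest authors' signal among such peaks. Details of its scaling were not given in the sources used here, so signals were ranked only within a list, and a percentile is the rank among the marked coding genes of that list. Read totals were not in the files used, so depth is unknown and an unmarked promoter is one where no peak was detected at this depth. Because the tissue is a mixture of cells, a mark in fewer cells and a weaker mark per cell cannot be told apart. Promoters of the markers of excitatory neurons, astrocytes and oligodendrocytes were marked in 3 of 3 genes each, as was the dentate granule cell gene Prox1. Markers of microglia and endothelium were marked in 2 of 2 each. The interneuron genes Gad1 and Gad2 were marked in the replicated list while Slc32a1 was not. Gad2 was weak there, at 3.01, and had no promoter peak in pool D. Slc32a1 had a promoter peak in pool C, at 3.9. Of the markers of striatal projection neurons, 1 of 3 was marked (Adora2a, signal 4.86), and Six3 had no promoter peak. Of the choroid plexus markers, Ttr was marked, at 6.09 in the replicated list, 6.95 in pool C and 5.24 in pool D, and Folr1 was not.

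In the replicated list 22 of the 34 receptor genes were marked (64.7%), against 60.8% of all protein-coding genes, a share near the background. Pool C marked 23 of them against a background of 61.4%, pool D marked 18 against 57.1%, and the list of both pools together marked 23 against 61.7%. That last list gave the same signal as the replicated list at all 22 genes, so it is not a separate measurement. The marked receptor genes ranked low by strength. Their promoter signal ran from 2.7 to 25.7 with a median of 8.1, and the median over all marked coding genes was 13.8. Only 5 of the 22 exceeded that median, against 50.1% of all marked genes. These were Htr4, Chrm1, Adra1d, Adrb1 and Htr1a, which belong to 3 of the 5 transmitter systems. Within 10 kb on each side of the main TSS the 34 genes had a median of 1374 bp in peaks, and all coding genes had 1488 bp. The direction of that difference turned between the pools, with 1732 bp for the receptor genes against 1517 bp in pool C and 609 bp against 991 bp in pool D. No base was covered at 11 of the 34, and the background share was 33.2%.

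**Figure D1:**
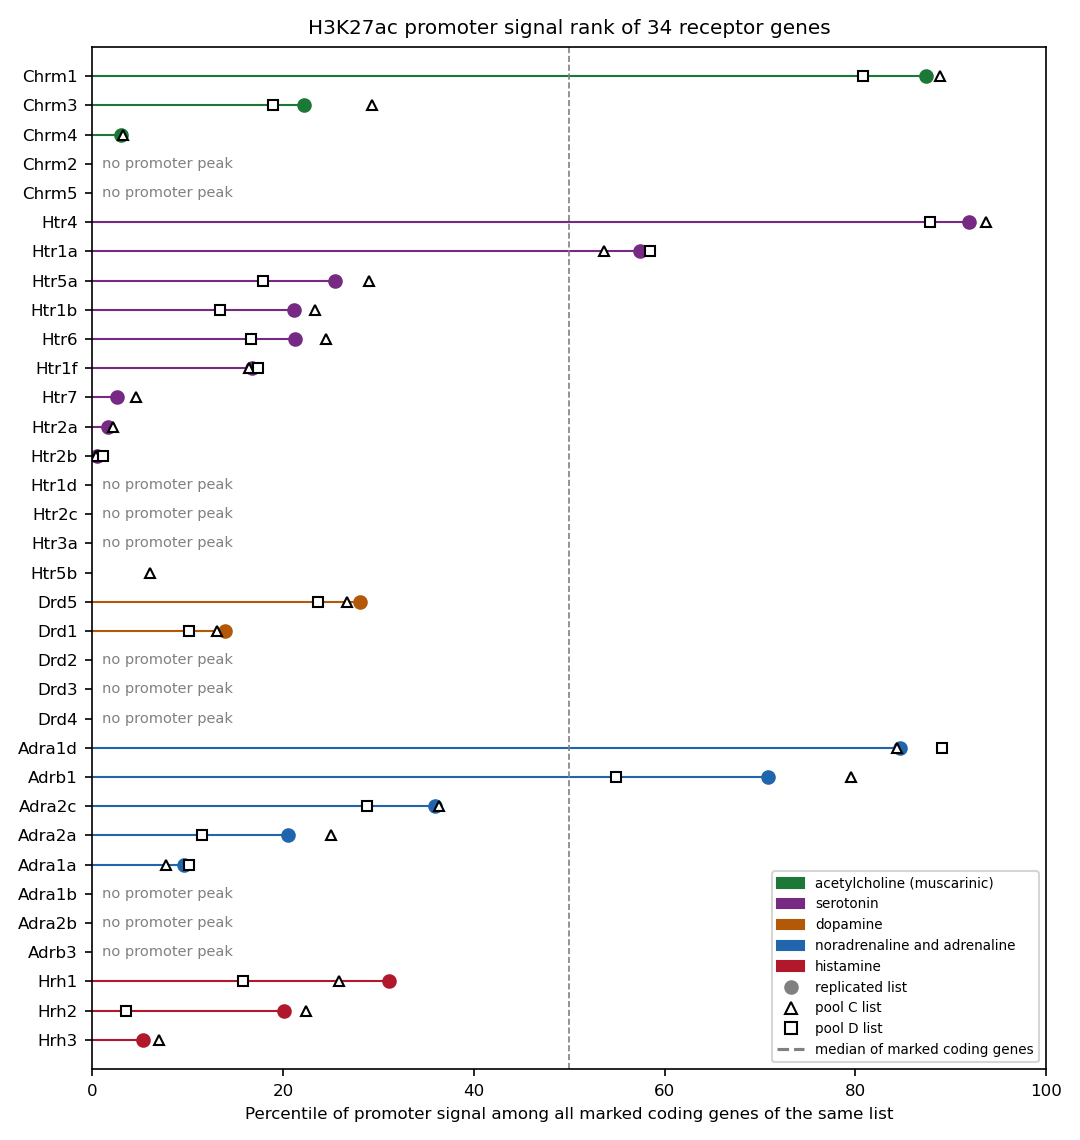
Percentile of the promoter signal of each of the 34 receptor genes, grouped by transmitter. Each percentile is the rank among all marked coding genes of the same list (replicated, pool C or pool D). Htr4, Chrm1, Adra1d, Adrb1 and Htr1a lie above the median of marked coding genes (percentile 50, dashed line), and 12 genes have no promoter peak in the replicated list.

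The promoters of Drd5 and Drd2 show how differently receptors of a single transmitter were marked. Those of Adrb1 and Htr1a stand for a CpG-rich and a CpG-poor promoter with signals above the median of marked genes. Their percentiles in the replicated list were 70.8 and 57.4. Each sequence runs from 250 bases before to 50 bases after the RefSeq start on GRCm38.p6, 5′ to 3′ on the strand of the gene, with every CG in capitals. RefSeq promoter entries matched 27 of the 34 genes.
Drd5, marked, chr5:38319259-38319558, plus strand: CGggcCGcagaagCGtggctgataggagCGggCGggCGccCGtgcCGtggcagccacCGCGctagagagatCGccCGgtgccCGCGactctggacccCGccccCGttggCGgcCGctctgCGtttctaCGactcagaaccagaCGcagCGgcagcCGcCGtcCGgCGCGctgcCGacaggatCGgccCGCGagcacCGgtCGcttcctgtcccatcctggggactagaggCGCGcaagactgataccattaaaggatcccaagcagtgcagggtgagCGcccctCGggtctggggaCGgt
Drd2, not marked, chr9:49340153-49340452, plus strand: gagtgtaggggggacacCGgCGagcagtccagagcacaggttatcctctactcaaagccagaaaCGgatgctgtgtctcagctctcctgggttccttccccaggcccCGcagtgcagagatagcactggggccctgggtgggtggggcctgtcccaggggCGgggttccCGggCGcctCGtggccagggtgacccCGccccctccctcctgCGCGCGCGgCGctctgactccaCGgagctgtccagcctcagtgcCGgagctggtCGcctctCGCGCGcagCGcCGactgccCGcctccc
Adrb1, marked, chr19:56721867-56722166, plus strand: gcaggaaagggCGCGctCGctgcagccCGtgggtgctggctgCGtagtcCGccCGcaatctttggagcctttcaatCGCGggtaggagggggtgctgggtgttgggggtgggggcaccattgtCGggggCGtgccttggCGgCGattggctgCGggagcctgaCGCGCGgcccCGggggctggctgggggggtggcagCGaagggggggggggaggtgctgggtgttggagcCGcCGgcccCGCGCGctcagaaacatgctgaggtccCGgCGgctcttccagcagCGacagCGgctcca
Htr1a, marked, chr13:105443443-105443742, plus strand: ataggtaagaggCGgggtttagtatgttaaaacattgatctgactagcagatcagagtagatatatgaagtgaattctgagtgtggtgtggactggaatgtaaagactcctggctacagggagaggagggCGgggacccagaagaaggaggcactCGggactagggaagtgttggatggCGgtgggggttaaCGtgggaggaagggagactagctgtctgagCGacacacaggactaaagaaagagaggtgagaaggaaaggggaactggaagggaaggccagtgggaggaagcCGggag
The Drd5 stretch held 38 CG and the Drd2 stretch 23, at the same GC content of 70.3%. The Adrb1 stretch held 28 CG at 72.3% GC, and the Htr1a stretch held 7 at 52.3% GC. The promoter peak covered all 300 bases of the Drd5, Adrb1 and Htr1a stretches, and the Drd2 stretch held no peak.

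Among the muscarinic acetylcholine receptors 3 of 5 genes were marked, all of them also in pool C and 2 in pool D. Chrm1 encodes the Gq/11-coupled receptor best known from hippocampal pyramidal cells. It had a signal of 23.0 in the replicated list, 27.1 in pool C and 15.1 in pool D, at percentiles 87.4, 88.9 and 80.8. Its strongest promoter peak, chr19:8664013-8666823, began 8 bp downstream of the main TSS, and a further promoter peak with a signal of 10.7 lay just upstream. Replicated peaks covered 8856 bp within 10 kb of the TSS and 55.1% of the gene. Chrm1 was first of the 34 genes by covered length in that list, while Htr6 was first in pool C with 9103 bp and Htr1a in pool D with 6794 bp. Chrm3, also coupled to Gq/11, had signals of 8.33, 11.3 and 6.29 in the same 3 lists, with its peak at chr13:10359190-10361508. It ranked far below Chrm1 in each of them, at percentiles 22.2, 29.3 and 18.9.

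Chrm4, a Gi/o-coupled receptor, was marked weakly, at 3.59 in the replicated list and 4.1 in pool C, with no promoter peak in pool D. The GENCODE gene is 1.44 kb long, and its peak began 833 bp downstream of the start, so it was the 1 gene lost with a window of 500 bp. No receptor gene was gained with a window of 2.5 kb. The RefSeq start of Chrm4 lies at −5060 bp from the GENCODE start, and there the promoter signal was 8.71, with 11.1 in pool C and 5.4 in pool D. The 7951 bp covered around the GENCODE start included 1735 bp in peaks near the TSS of Mdk, the gene of the growth factor midkine. The Gi/o-coupled Chrm2, best known from the heart and as an autoreceptor, had no peak nearer than 333925 bp. Chrm5, a Gq/11-coupled receptor known from dopamine neurons, had no promoter peak, and its nearest peak lay 4946 bp away with a signal of 4.63.

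Of the 13 serotonin receptor genes 9 were marked, with 10 in pool C and 7 in pool D. Htr4, whose product raises cyclic AMP through Gs, had a signal of 25.7 in the replicated list, 30.4 in pool C and 17.0 in pool D. It was the highest of the 34 genes in the replicated list and in pool C, and was second to Adra1d in pool D. These values stood at percentiles 91.9, 93.7 and 87.8. Htr1a, the Gi/o-coupled receptor that inhibits pyramidal cells and also acts as the raphe autoreceptor, had signals of 15.2, 16.6 and 11.3 in the same lists. Its promoter peak, chr13:105442902-105448197, was the widest at 5296 bp and covered 100% of the short gene. The Htr4 promoter peak was stronger but narrower, at 1224 bp.

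Another 4 serotonin receptor genes had replicated signals between 7.06 and 9.02, and each was marked in both pools. Htr5a, coupled to Gi/o, had 9.02, with 11.2 in pool C and 6.12 in pool D. Htr6, coupled to Gs, had 8.1, with 10.1 and 5.94, and its 10 kb flanks held 8452 bp in peaks. Htr1b, the terminal autoreceptor, also had 8.1, with 9.85 and 5.54. Htr1f, a Gi/o-coupled receptor, had 7.06, with 8.0 and 6.08. All 4 lay in the lower part of the ranking, at percentiles from 16.7 to 25.4.

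The remaining 3 marked serotonin receptor genes were at the bottom of the ranking. Htr7, coupled to Gs, had a replicated signal of 3.47 in a peak of 253 bp, the narrowest of the 22, and no peak of either pool list overlapped it. Pool C placed another promoter peak at Htr7 with a signal of 4.51, and pool D placed none. Htr2a, the Gq/11-coupled target of hallucinogens, had 3.21, with 3.87 in pool C and no promoter peak in pool D. Htr2b, a Gq/11-coupled receptor known from heart valves, had 2.7, with 3.04 in pool C and 3.2 in pool D. Its start lies inside Psmd1, a proteasome subunit gene.

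The unmarked serotonin receptor genes were Htr1d, Htr2c, Htr3a and Htr5b. Htr2c, a Gq/11-coupled receptor on the X chromosome known for its role in appetite, lay 590482 bp from its nearest peak, the farthest of the 34 genes. Htr3a, which encodes the subunit of the serotonin-gated ion channel and is known from interneurons, lay 48370 bp away. Htr1d, a Gi/o-coupled relative of Htr1b, lay 38011 bp away. Htr5b, a Gi/o-coupled receptor, had a promoter peak with a signal of 4.92 in pool C and 3.93 in the list of both pools together, and none in pool D or the replicated list. The other 11 of the 12 unmarked receptor genes had no promoter peak in any of the 4 lists.

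The dopamine receptor genes were marked in 2 of 5 cases, and these were the Gs-coupled pair. Drd5 had signals of 9.48 in the replicated list, 10.7 in pool C and 6.92 in pool D, with its peak at chr5:38318866-38320209. Drd1, the main Gs-coupled dopamine receptor of the striatum, had 6.36, 6.97 and 5.03, with its peak at chr13:54054691-54055748. Both ranked below the middle of marked genes, at percentiles 28.1 and 13.9. The Gi/o-coupled Drd2, Drd3 and Drd4 had no promoter peak in any list. Drd2, the target of antipsychotic drugs, lay 133894 bp from its nearest peak. Drd3 had its nearest peak 39385 bp downstream inside the gene. For Drd4 the nearest peak, 33857 bp away, lay at the starts of Deaf1 and Tmem80. The median covered length of the dopamine group was 0 bp.

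Of the 8 receptor genes for noradrenaline and adrenaline 5 were marked, and the same 5 were marked in each pool. Adra1d, coupled to Gq/11, had signals of 22.0 in the replicated list, 24.9 in pool C and 17.4 in pool D, at percentiles 84.7, 84.4 and 89.1. Its peak, chr2:131559341-131563408, was 4068 bp wide. Adrb1, the Gs-coupled receptor shared by heart and brain, had 18, 23.1 and 10.9, in a peak of 4368 bp at chr19:56720453-56724820. Its rank varied more between the pools than that of Adra1d, with percentiles of 79.6 in pool C and 54.9 in pool D. The Gi/o-coupled Adra2c and Adra2a, which also act as autoreceptors, had 11.1 and 7.98, and 12.9 and 10.3 in pool C against 7.55 and 5.24 in pool D. Adra1a, coupled to Gq/11, had 5.32, with 5.47 in pool C and 5.03 in pool D. Adra1b (Gq/11), Adra2b (Gi/o) and Adrb3 (Gs, known from fat cells) had no peak within 10 kb, with nearest peaks at 152617, 26336 and 30893 bp.

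All 3 histamine receptor genes were marked in the replicated list and in pool C, and 2 of them in pool D. Hrh1, the Gq/11-coupled target of sedating antihistamines, had signals of 10.2 in the replicated list, 10.5 in pool C and 5.87 in pool D. Its strongest promoter peak lay downstream of a RefSeq start 5730 bp from the main TSS, while the peak nearest the main TSS had a signal of 3.12. Hrh2, the Gs-coupled receptor also known from the stomach, had 7.87, 9.64 and 3.82, and its rank fell to percentile 3.53 in pool D from 22.4 in pool C. Hrh3, the Gi/o-coupled autoreceptor, had 4.23 in the replicated list and 5.27 in pool C, with no promoter peak in pool D. Median covered lengths were 1688 bp for histamine, 2442 bp for noradrenaline and adrenaline, 2631 bp for acetylcholine and 891 bp for serotonin.

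**Figure D2:**
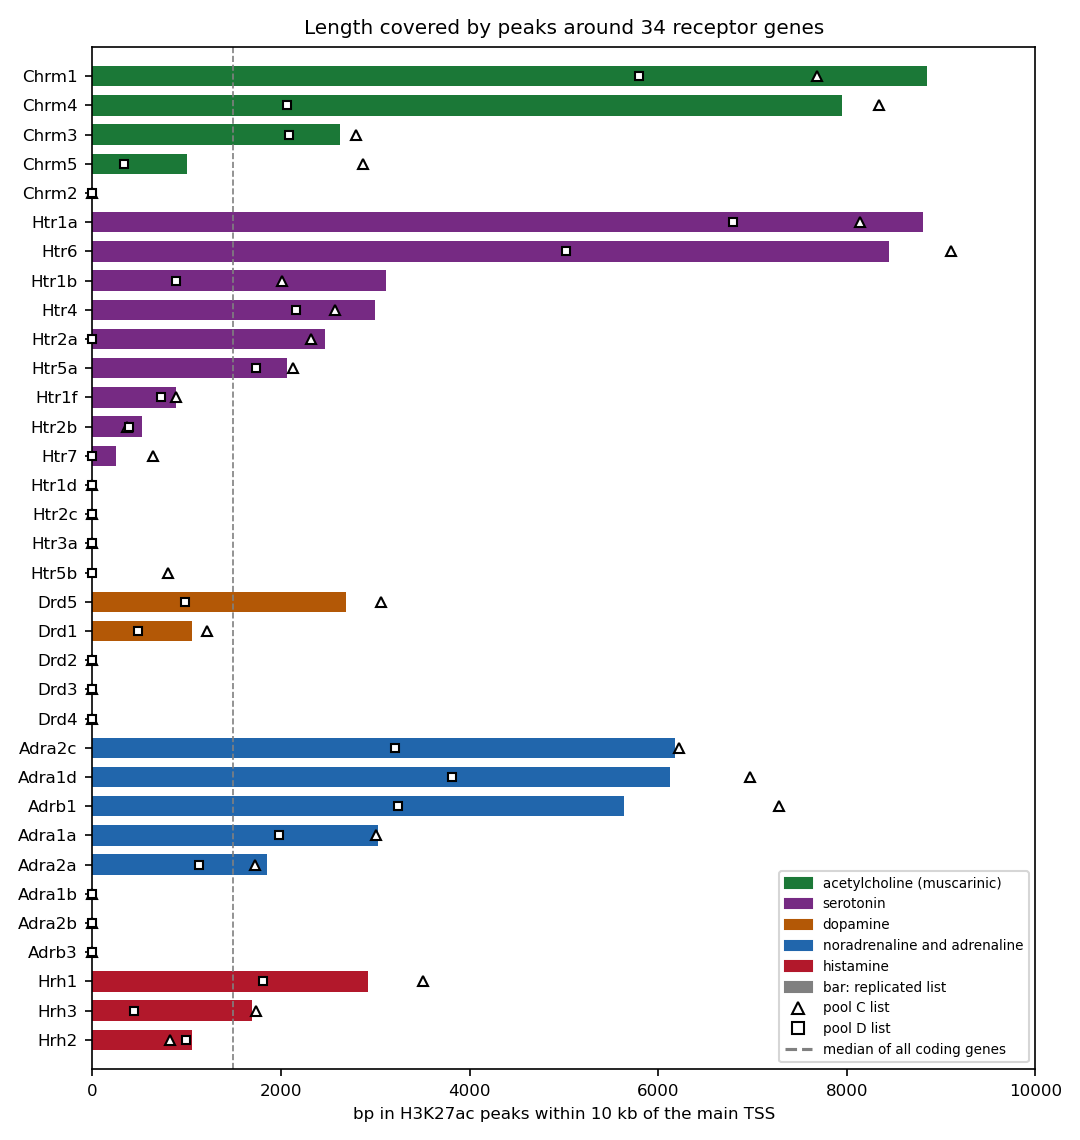
Base pairs in peaks within 10 kb on each side of the main TSS for each of the 34 receptor genes, with bars for the replicated list and symbols for the pool lists. Chrm1 (8856 bp), Htr1a (8810 bp), Htr6 (8452 bp) and Chrm4 (7951 bp) are highest, and 11 genes are at 0.

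Sorted by coupling, 7 of 8 Gs-coupled, 7 of 10 Gq/11-coupled and 8 of 15 Gi/o-coupled receptor genes were marked, and the ion channel subunit was not. The share over all coding genes was 60.8%. In pool D the counts were 6 of 8, 6 of 10 and 6 of 15, against 57.1% of all coding genes. The only unmarked Gs-coupled gene was Adrb3, and the unmarked Gi/o-coupled genes were Adra2b, Chrm2, Drd2, Drd3, Drd4, Htr1d and Htr5b. Median replicated signals of the marked genes were 8.1 for Gs, 8.33 for Gq/11 and 8.04 for Gi/o. The classes hold few genes, and the differences between them were not tested. They also differed in CpG content, with 4 of 8, 4 of 10 and 4 of 15 genes CpG-rich as defined below. The part of CpG content was not tested.

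**Figure D3:**
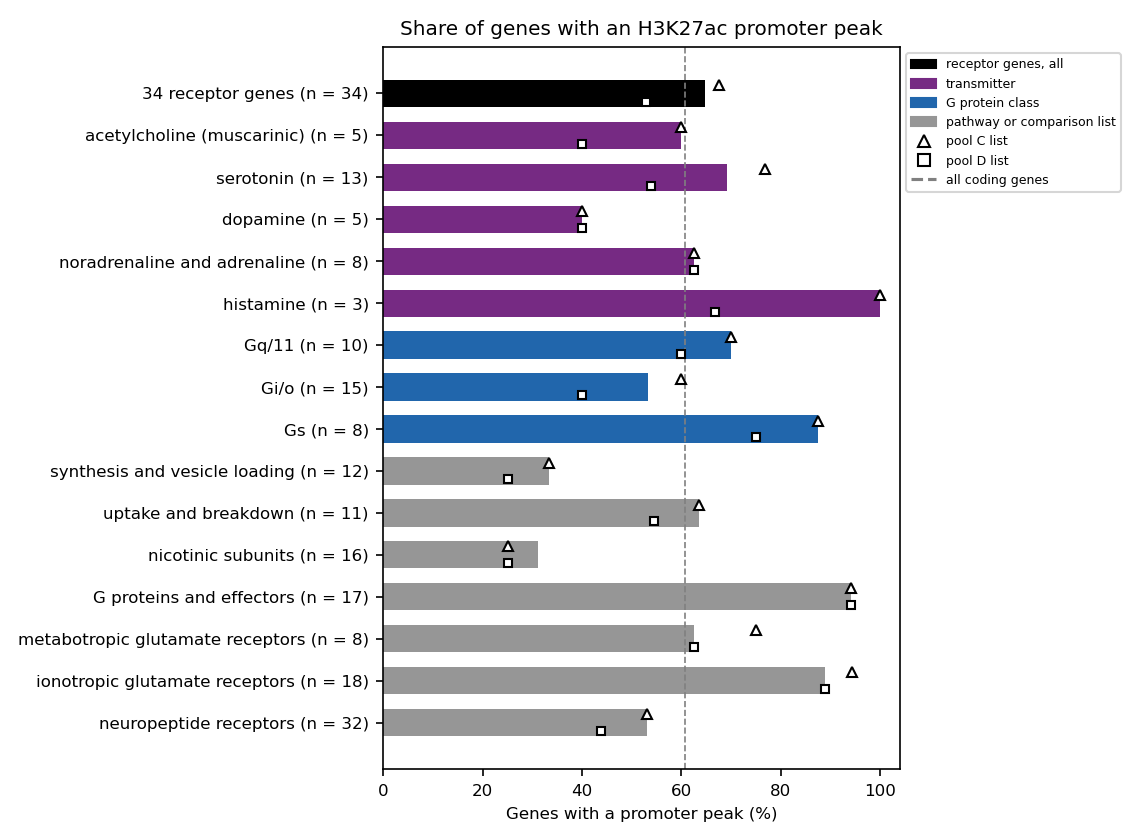
Share of genes with a promoter peak (%) for the 34 receptor genes, their transmitter and coupling groups, and the comparison lists, with bars for the replicated list and symbols for pools C and D. The dashed line is the share over all coding genes (60.8%), and G proteins and effectors stand at 94.1% while nicotinic subunits stand at 31.2%.

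The 22 promoter peaks had a median width of 1666 bp, and the strongest promoter peaks of all marked coding genes had 1703 bp. The peak covered the main TSS at 14 of the 22 genes, and none of the 22 peaks held the TSS of another coding gene. The summit lay downstream of the nearest coding TSS at 13 genes and upstream at 9, with a median distance of 308 bp. Among the 12 unmarked genes, 11 had no peak within 10 kb, against 82.7% of all unmarked coding genes, and the distance to the nearest peak had a median of 38698 bp.

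**Figure D4:**
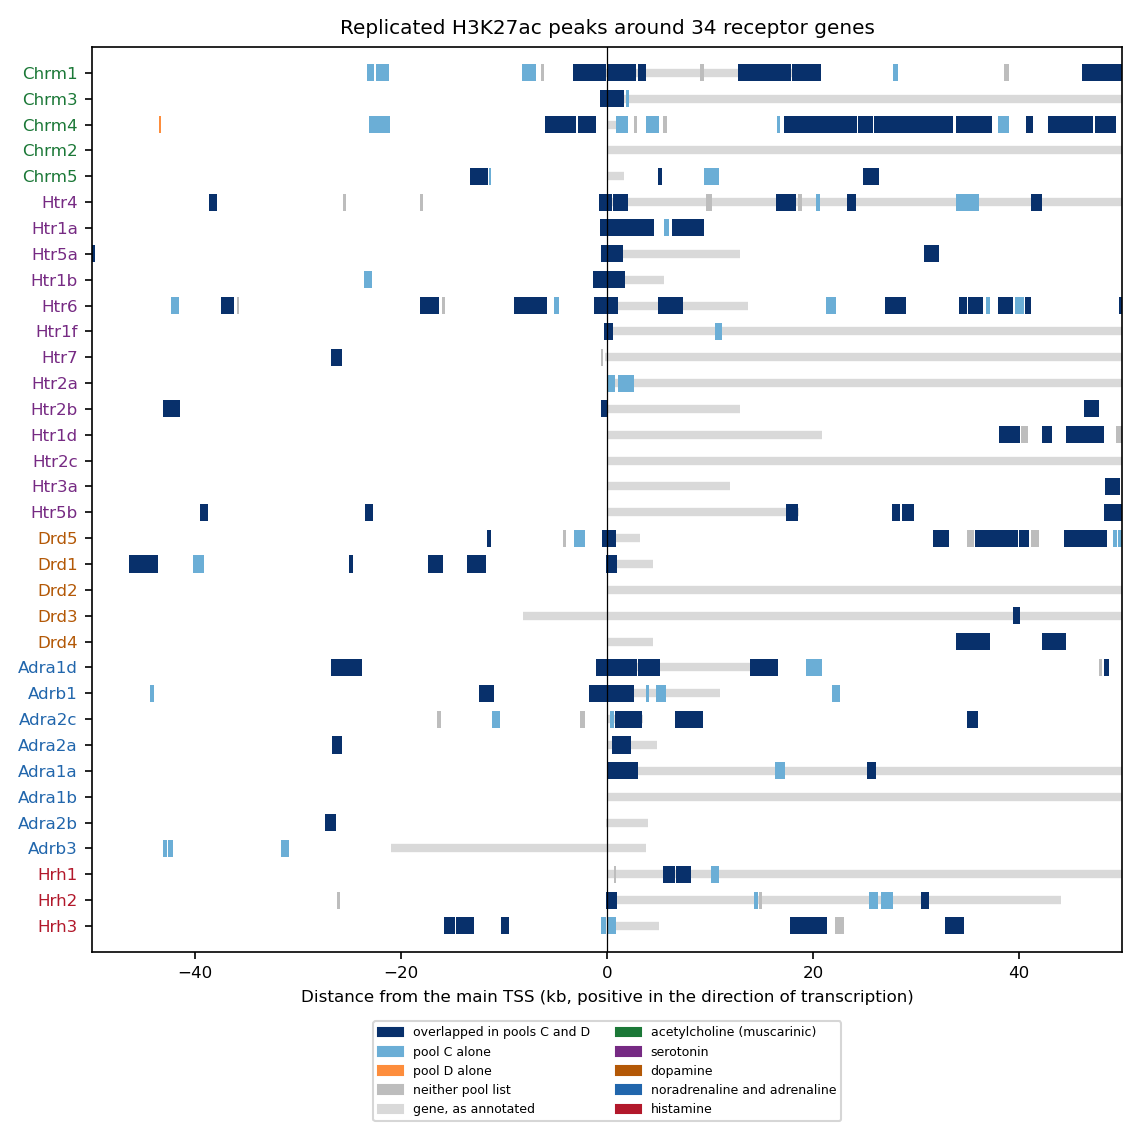
Replicated peaks within 50 kb of the main TSS of each receptor gene, with distance in kb, positive in the direction of transcription, and colour for the pool lists that overlap each peak. Chrm1, Htr1a and Htr6 have several peaks near the TSS, and Chrm2, Htr2c, Drd2 and Adra1b have none in the window.

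The 34 genes held 76 replicated peaks, 26 of them promoter peaks, and 11 genes held none, against 34.9% of all coding genes. Htr4, 172 kb long, held 16 that covered 14.1% of the gene. Chrm3, the longest at 485 kb, held 13 that covered 2.42%, and Chrm1, Hrh1 and Hrh2 held 6 each. In Htr4, peaks with signals of 11.3, 9.46 and 7.23 began 128815, 133451 and 144885 bp downstream of the main TSS, each overlapped in both pools. In Chrm3, 10 peaks began between 352701 and 477512 bp downstream, with signals from 2.84 to 7.4, and 5 of the 10 were overlapped in both pools. Hrh1 had a peak with a signal of 10.7 that began 50216 bp downstream, about as strong as its best promoter peak. Of the 76 peaks, 44 were overlapped in both pools, 25 in pool C alone, 0 in pool D alone and 7 in neither. No share over the peaks in all gene bodies is given beside these counts, and the lists held 94836 peaks in pool C and 63623 in pool D.

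Promoters without support in pool D had low signals, but Htr2b, with the lowest signal of the 22, was supported in both pools. At 18 of the 22 marked genes a peak of each pool overlapped the promoter peak, against 93.8% of all marked coding genes. The peaks at Chrm4, Htr2a and Hrh3 were overlapped in pool C alone, and that at Htr7 in neither. Of the 23 genes marked in pool C, 5 had no promoter peak in pool D, against 7.18% of all genes marked in pool C. These were Chrm4, Htr2a, Htr5b, Htr7 and Hrh3. All 5 had a pool C signal under 6, a limit chosen after the values were seen. Of the 7 receptor genes under that limit 5 had no promoter peak in pool D, and the share over all coding genes under it was 62.1%. The pool D list held fewer peaks than the pool C list, and the part of depth in this was not tested.

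Receptor genes were marked at CpG-rich promoters and at CpG-poor ones. CpG observed over expected was computed in 1 kb around the main TSS, and 0.6 or more was called CpG-rich. Of the 12 CpG-rich receptor genes 9 were marked (75.0%), against 91.6% of all CpG-rich coding genes. Of the 22 others 13 were marked (59.1%), against 33.2% of all other coding genes. That background was not matched for CpG content within the class. Over all coding genes 4.77% were marked at values under 0.1 and 14.2% from 0.1 to 0.2. From 0.4 to 0.5 the share was 59.2%, and from 0.5 to 0.6 it was 77.1%. No receptor gene lay under the 0.17 of Htr3a, and many of the 22 lay between 0.4 and 0.6. The CpG-rich genes without a mark were Drd2 at 0.773, Adra2b at 0.754 and Htr2c at 0.61. Chrm1, at 0.208, and Adra2c, at 0.263, had few CpGs and had signals of 23.0 and 11.1. Drd4 at 0.585 and Chrm2 at 0.586 lay just under the limit and were unmarked, and Adra1a at 0.598 lay just under it and was marked. Shares by the number of annotated starts were alike. Of the 14 receptor genes with 1 coding TSS 9 were marked, against 48.1% of such genes, and of the 20 with more 13 were marked, against 68.5%.

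**Figure D5:**
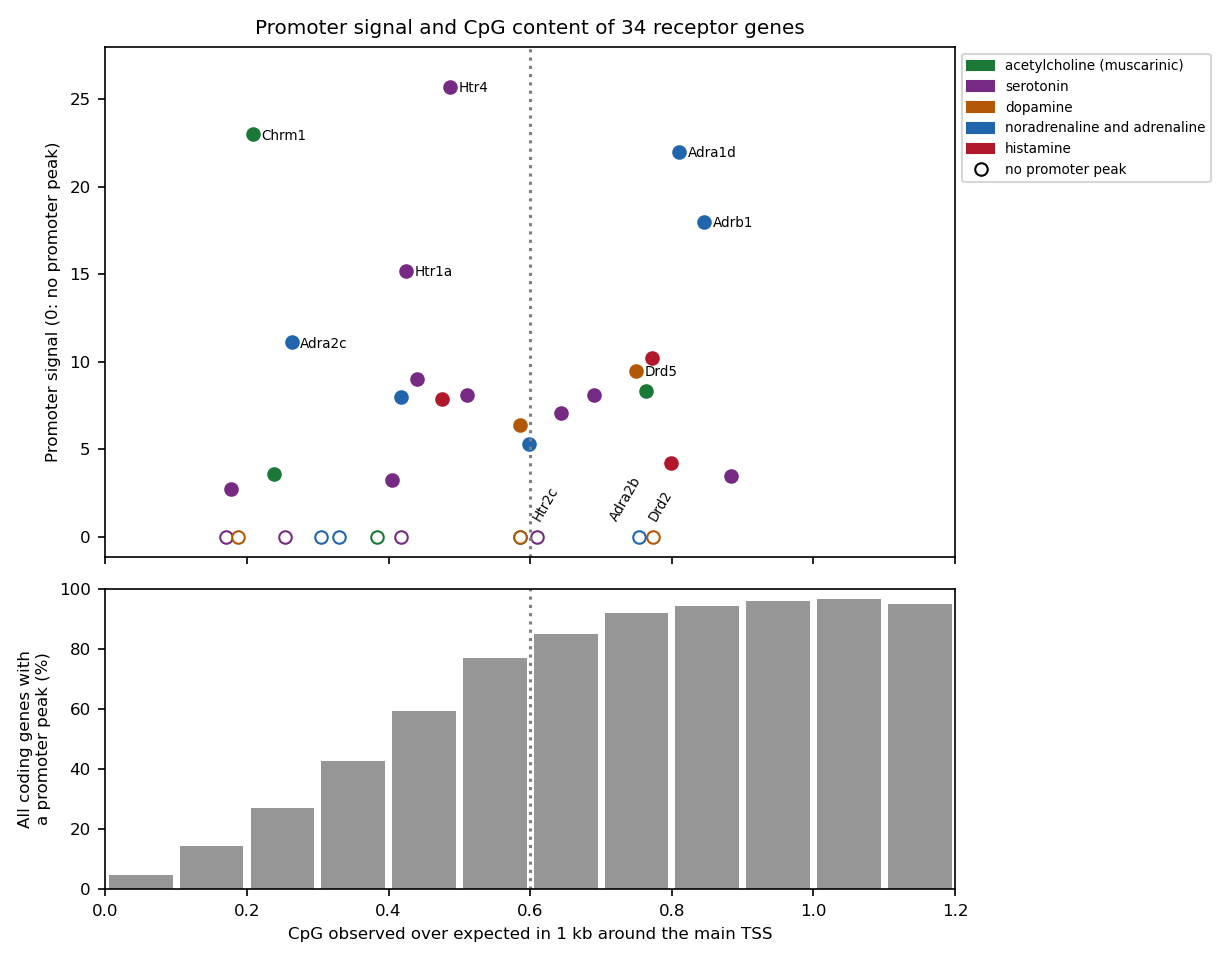
Upper panel, promoter signal in the replicated list against CpG observed over expected in 1 kb around the main TSS for the 34 receptor genes, with open circles at 0 for genes without a promoter peak. Lower panel, share (%) of all coding genes with a promoter peak by CpG bin, which rises with CpG content, while Drd2, Adra2b and Htr2c are CpG-rich and unmarked.

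Short motifs were searched on both strands from 250 bases before to 50 bases after the main TSS. The GC box GGGCGG was present at 17 of 34 receptor genes (50%) and at 45.5% of all coding genes. The cyclic AMP response element TGACGTCA was present at 0 of 34 and at 2.48% of all coding genes, and the E-box CACGTG at 0 of 34 and at 7.73%. The TATA box TATAAA was present at 1, Chrm4, and at 12.6% of all coding genes. The Chrm4 match lay at −246 bp from the GENCODE start. Such counts depend on the start used. The RefSeq stretch of Adrb1 shown above held 1 GC box, and Adrb1 was not among the 17. Shares of these short motifs around the RefSeq starts are not given here.

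The RE1 element, which the repressor REST binds to silence neuronal genes outside neurons, was searched by its 21-base consensus on both strands within 1 kb of the main TSS, with up to 3 mismatches. It matched at 4 of the 34 genes (11.8%) and at 0.554% of all coding genes. Around the RefSeq starts, a window added after the data were seen, 5 receptor genes matched and 0.674% of coding genes did. The matches are shown so that they can be compared base by base, with capitals for bases identical to the consensus, in the direction of the element.
Htr1a, chr13:105442785-105442805, minus strand: TTCAGCACCcgGGACAGCtCt
Hrh3, chr2:180104574-180104594, plus strand: ggCAGCACCacGGACAGCGCC
Htr5a, chr5:27841729-27841749, plus strand: agCgGCACCgtGGACAGCGCC
Drd2, chr9:49341196-49341216, minus strand: TTCAGCACCaaGGACAGCaga
Chrm4, RefSeq start only, chr2:91921333-91921353, minus strand: TTCAGCACCtcGGACAGCcCC
The Htr5a and Chrm4 matches lay inside a replicated peak, the Hrh3 match 3 bp and the Htr1a match 97 bp from one, and the Drd2 match 134463 bp from the nearest. A match describes letters only, and binding of REST was not measured here.

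The other genes of these transmitter systems were marked unevenly, beside a share of 60.8% over all coding genes. G proteins and their effectors were marked at 16 of 17 genes, led by phospholipase Plcb1 at 26.8, Gnao1 at 24.4 and Gna11 at 23.2, with Gna14 unmarked. Their median signal was 16.2, and that of the receptor genes was 8.1. Uptake and breakdown genes were marked at 7 of 11, among them Maoa at 18.5 and Hnmt at 15.3, enzymes that inactivate monoamines and histamine. The unmarked genes of that list were the transporters Slc22a3, Slc6a2, Slc6a3 and Slc6a4.

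Synthesis and vesicle loading genes were marked at 4 of 12. The highest was Slc18a1 at 17.7, in a peak that also held the TSS of Atp6v1b2, followed by Dbh at 8.67 and Ddc at 4.74. Chat, Hdc, Th and Tph2, which make acetylcholine, histamine, catecholamines and serotonin, had no promoter peak. Tph1, the other serotonin synthesis enzyme, was marked at 4.31 in the replicated list and 5.9 in pool C, with no promoter peak in pool D. Nicotinic receptor subunits, the ion channels for acetylcholine, were marked at 5 of 16, led by Chrna7 at 9.48.

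Among receptors for other transmitters, metabotropic glutamate receptor genes were marked at 5 of 8, ionotropic glutamate receptor genes at 16 of 18 and neuropeptide receptor genes at 17 of 32. Their median signals were 16.4, 15.0 and 10.4, each above the 8.1 of the monoamine, acetylcholine and histamine receptor genes. Grm5 at 20.3, Gria2 at 28.8 and Adcyap1r1 at 25.6 led these lists. The Gria2 signal exceeded that of Htr4, the highest of the 34 genes in the replicated list.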

How the data were processed

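H3K27ac ChIP-seq peaks were taken as deposited, as 4 narrowPeak lists on mm10. The lists of both pools together, pool C and pool D are pseudoreplicated and the technical replicates of a pool were joined, per the labels. Aligner and caller names were not given in the sources used here. Signals were used as deposited. The −log10 q column, also as deposited, served only in an alternative that kept peaks of 5 or more.

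Genes and starts came from GENCODE M21, the main TSS being that of the APPRIS principal transcript, and sequence from GRCm38.p6 and RefSeq. No peak of the 350032 ended beyond its chromosome. Promoter peaks were overlaps with 1 kb on each side of any coding TSS, pool support was an overlap of 1 bp or more, and covered length was the union of peaks within 10 kb. With 1 group no test between groups was possible, so members are described by counts beside all coding genes. The counting of overlaps was checked on simulated data. Python 3.11.15, numpy 2.4.6, pandas 2.3.3, pysam 0.24.0 and matplotlib 3.10.9 were used.

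The members and lists were chosen with earlier results of these data known. Named genes of the comparison lists were up to 3 with the highest promoter signal and unmarked genes in alphabetical order. A few genes that fall under that rule are not reported here. Slc6a4, Th, Tph1 and Tph2 were named after their values were seen. Alleles of the parental strains were not analysed here.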

Additional observations from a re-analysis of the deposited data

How the results depend on the processing

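The number of marked receptor genes was 21 with a TSS window of 500 bp, where Chrm4 was lost, and 22 with a window of 2.5 kb, with the main TSS alone, with every annotated TSS, with peaks of −log10 q of 5 or more, and with RefSeq starts, an alternative added after the data were seen. The shares of all coding genes were, in that order, 60.1%, 62.3%, 58.6%, 61.6%, 60.4% and 62.5%. With peaks above the median signal 17 receptor genes were marked, against 57.4% of all coding genes, and Htr2b, Htr2a, Htr7, Chrm4 and Hrh3 were lost. The list of both pools together marked 23, against 61.7%. With 1 pool left out the number ranged from 18 to 23, and the background from 57.1% to 61.4%. The receptor share was the lower one with peaks above the median signal and in pool D. The median covered length of the receptor genes was 2264 bp with a window of 25 kb, and over all coding genes it was 1086 bp with 2 kb and 2558 bp with 25 kb, since the window sets the length that can be covered. With 1 pool left out, the median over all coding genes ranged from 991 to 1517 bp, and that of the receptor genes from 609 to 1732 bp. The receptor genes were thus above all coding genes in pool C and below them in pool D and in the replicated list. Asking for 50% of the replicated peak to be overlapped left 15 promoter peaks supported by both pools, and 50% of both peaks left 13. Shares of all marked coding genes under these stricter rules are not given here, so the counts cannot be set against a background. Unknown depth limits every absent peak. No paired analysis was possible because all samples form 1 group.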
